A study of Homo sapiens with 4 samples.

Results

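The CLIC genes (CLIC1 to CLIC6) encode the chloride intracellular channel family, and their transcripts were followed in RNA that streptavidin beads recovered from DU-145 cells carrying a synthetic miR-26a. The 6 genes were found by matching the RefSeq accession of each deposited transcript row to the gene symbols, which gave 31 rows of 53209 and 6 genes of 25688. The family was picked because CLIC4 was far higher in the biotin libraries, so the values of its members in that contrast are given as a description and carry no test.

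DU-145 is a human prostate cancer cell line. In the biotin group, 60 nM of a mixture of 2 miR-26a duplexes was transfected with lipofectamine. It is described as tagged with biotin at the 3′ end, with thiouridine, a photo-crosslinking form of uridine, at nucleotide 7 of one duplex and nucleotide 17 of the other. In the control group, 60 nM of a plain miR-26a duplex was transfected, so cells of both groups received extra miR-26a, both were irradiated at 365 nm with 2 J/cm2, and RNA of both was incubated with streptavidin beads for 4 h. Each group holds 2 libraries, which the series design calls biological replicates, and p-values therefore rest on the spread between 2 libraries a group. The tag and the thiouridine went together, and their shares in any difference cannot be told apart. No library of RNA before pull-out was analysed here, so recovery on the beads and the amount of an mRNA in the cells cannot be told apart either.

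CLIC proteins share a glutathione transferase fold and exist both as soluble proteins and in a membrane-bound form, for which chloride channel activity has been described. CLIC1 and CLIC4 are the widely expressed members; CLIC4 moves between cytoplasm, organelles and nucleus and takes part in integrin trafficking, tube formation and TGF-beta signalling. MicroRNAs such as miR-26a pair with mRNAs mainly through a short stretch near their 5′ end, the seed, while pairing through the centre or 3′ part of the microRNA is less common.

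The microRNA on the beads and the stretches of CLIC mRNA complementary to it are shown first, since the tag was on this molecule. The mature sequence of hsa-miR-26a-5p is from RefSeq (GRCh38.p14), where it lies at chr3:37969413-37969434 on the plus strand (MIR26A1) and at chr12:57824658-57824679 on the minus strand (MIR26A2). Capitals mark the seed, nucleotides 2 to 8, in the first line, and nucleotides 7 and 17, the thiouridine positions if counted from the 5′ end of this strand, in the second line. Both are U in the natural sequence.
miR-26a-5p, seed: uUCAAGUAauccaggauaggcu
miR-26a-5p, thiouridine positions: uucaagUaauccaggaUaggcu

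The letters TACTTGA, complementary to the seed, were searched on the sense strand of the CLIC mRNAs that GENCODE 29 (GRCh38) links to the deposited accessions. They were found in 4 of the 6 genes, counting a match in any linked mRNA, and in neither CLIC4 nor CLIC3. In CLIC1 and CLIC6 the match lay in the coding sequence, in CLIC2 in the 5′ UTR, and in CLIC5 in the 3′ UTR of 1 of 3 linked mRNAs. Linked sequences can differ in length from the deposited rows. For CLIC5, 1 linked mRNA without the match had 5301 bases, against 5738 in its deposited row, whose locus spans the site. Capitals below mark the match.
CLIC1, chr6:31730937-31730943, minus strand: ggagtgcatcggTACTTGAgcaatgcctac
CLIC2, chrX:155334515-155334521, minus strand: aagcaccaacatTACTTGAgtctttggata
CLIC5, chr6:45898646-45898652, minus strand: ccaaatgatagtTACTTGAttttctcgaga
CLIC6, chr21:34716381-34716387, plus strand: ggcatctggagaTACTTGAataatgcttat

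The linked CLIC4 mRNA of 4346 bases also lacked the shorter match ACTTGA, complementary to nucleotides 2 to 7. The deposited CLIC4 row has 4434 bases, and any bases outside the linked sequence were not searched. Over 17958 genes with 1 mRNA each, 14.7% held TACTTGA anywhere in the mRNA, 9.23% held it in the 3′ UTR and 45.2% held ACTTGA. With 1 mRNA per gene, as in this background, 3 of the 6 CLIC genes held TACTTGA, since the CLIC5 mRNA then used, NM_001256023, held none. Among the 1601 mRNAs within 10% of the CLIC4 length these shares were 21.4%, 14.2% and 64.6%. The absence of these letters says nothing about binding elsewhere in the mRNA.

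The longest unbroken stretch of each CLIC mRNA complementary to any part of miR-26a was then located, a search added after CLIC4 was seen to hold no seed match. CLIC4 held the longest of the family, 11 bases complementary to nucleotides 9 to 19, in its 3′ UTR starting at base 1474 of the mRNA. Counted from the 5′ end of miR-26a-5p, nucleotide 17 lies within the complementary part and nucleotide 7 outside it. Whether these bases paired in the cells was not tested. The stretch in CLIC6 had 9 bases (nucleotides 11 to 19), that in CLIC2 had 9 bases and contained the seed match above (nucleotides 2 to 10), those in CLIC1 and CLIC5 had 8 (nucleotides 10 to 17 and 9 to 16), and that in CLIC3 had 7 (nucleotides 11 to 17). Where stretches tied for the greatest length, only the stretch complementary to bases nearest the 3′ end of miR-26a was kept. Others of equal length may therefore exist. Capitals mark the stretch in the lines below, which show that the stretches kept for CLIC4, CLIC6, CLIC1, CLIC5 and CLIC3 share the letters TCCTGG.
CLIC4, 3′ UTR, chr1:24841452-24841462, plus strand: caatttagtCTATCCTGGATatgtactaac
CLIC6, 3′ UTR, chr21:34717868-34717876, plus strand: taacagaaaCTATCCTGGgattaggtgaaa
CLIC1, 3′ UTR, chr6:31730727-31730734, minus strand: gggcagggaATCCTGGAgcacttgttccgg
CLIC5, coding, chr6:45914285-45914292, minus strand: ggcgcaagtTCCTGGATggggatgagctga
CLIC3, coding, chr9:136994713-136994719, minus strand: agcgccgagATCCTGGcggcctaccggccc

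The libraries had an estimated 17600000 and 23600000 mapped reads in the biotin group and 16000000 and 17800000 in the control group. FPKM values count fragments relative to the length of the transcript and the mapped fragments of the library, and 3 reads on a transcript of 1 kb were worth 0.127 to 0.187 FPKM. Genes were compared with limma on log2(FPKM + 1), a scale that understates the change of low genes, and a gene was called at a Benjamini-Hochberg adjusted p below 0.05. Of 9934 tested genes, with at least 1 FPKM in at least 2 libraries, 1307 were called higher and 925 lower in the biotin libraries, and the median log2 fold change was -0.06. Scaling the libraries by their upper quartile gave 1222 higher and 1382 lower, quantile scaling gave 1274 and 1210, and median-of-ratios scaling gave 1482 and 755. An exact permutation test of 2 libraries against 2 cannot give a two-sided p below 0.333. Epithelial keratins were present in every library (KRT18 at 45.1 and 50.0 FPKM in biotin, against 61.5 and 65.0 FPKM in control, not called), while the prostate gene KLK3 was listed at 0 in all 4. Of 8 epithelial markers, CD44 (log2 fold change 2.12, adjusted p = 0.00173, limma) and EGFR (1.03, adjusted p = 0.0137) were called higher and 0 lower. The summed FPKM of the 8 was 271.4 and 295.5 in biotin, against 244.6 and 287.4 in control, that of 5 blood cell markers did not exceed 3.14 and that of 5 fibroblast markers did not exceed 0.373. Of the 2 blood cell markers tested, CD14 was called higher (log2 fold change 0.91, adjusted p = 0.0436, limma) and CD74 lower (-0.69, adjusted p = 0.0223).

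Only CLIC4 and CLIC3 could be compared between the groups, and of these CLIC4 was the abundant one and the one that differed. CLIC3 was low in every library, with groups that overlapped. CLIC2, CLIC5 and CLIC6 rested on a few reads at most, and CLIC1 was listed at 0 throughout, which is not taken as its level. CLIC4 and CLIC3 passed the filter on low values. Of these 2 tested members 1 was called higher and 0 lower, where 13.2% of all tested genes were called higher and 9.31% lower. Both biotin values lay above both control values for CLIC4, as for 29.4% of tested genes, and below both for 0 members, against 37.7% of tested genes. Since the family was chosen on this contrast, nothing is read from these shares.

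**Figure D1:**
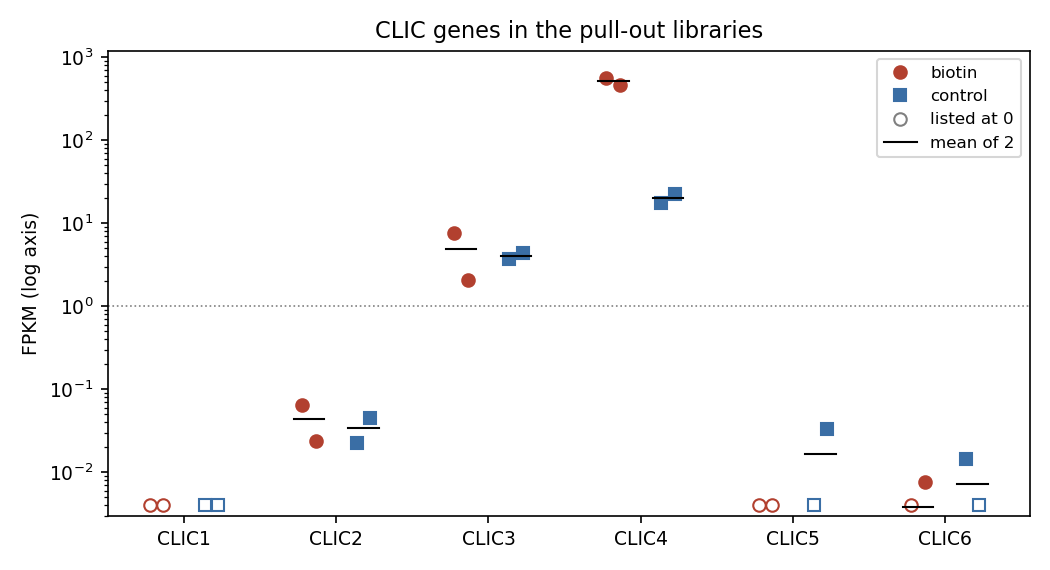
FPKM (log axis) of the 6 CLIC genes in each library, with biotin libraries as circles left of control libraries as squares, open symbols at an arbitrary height for genes listed at 0, horizontal bars for the mean of 2 libraries and a dotted line at 1 FPKM. CLIC4 lies at 461.3 and 564.1 FPKM in biotin and at 17.5 and 22.6 FPKM in control, and the CLIC3 groups overlap.

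CLIC4 had 564.1 and 461.3 FPKM in the biotin libraries, against 17.5 and 22.6 FPKM in the control libraries. All of this came from the single row NM_013943 at chr1:24745269-24844324 of hg38, on the plus strand, with a deposited length of 4434 bases. The groups were far apart, with each biotin library 20.4 to 32.3 times each control library. The means were 512.7 ± 72.7 FPKM in biotin and 20.0 ± 3.63 FPKM in control (SD, n = 2 each), a ratio of 25.6. The log2 fold change of FPKM + 1 was 4.61 ± 0.23 (SE), and it stayed between 4.44 and 4.79 when each library was left out in turn. In reads, the values stand for about 43781 and 48192 in biotin and 1237 and 1780 in control, so counting error was small beside the spread of libraries.

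By level, CLIC4 ranked 23 and 28 of the 9934 tested genes in the biotin libraries, and 1296 and 1101 in the control libraries. It made up 0.350% and 0.312% of the summed FPKM in biotin, short structured RNA genes left out, against 0.0101% and 0.0113% in control. Within the family its share was 98.7% and 99.5% in biotin and 82.3% and 83.7% in control, where most of the remainder was CLIC3. CLIC1 entered these sums at its listed 0, which is not taken as a level. The shares therefore leave CLIC1 out and are not shares of the whole family. By size of the difference, 2 tested genes had a larger log2 fold change than CLIC4 and 6 reached at least 4.

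The deposited tables give an interval beside each FPKM, and for CLIC4 the FPKM lay below its own interval in all 4 libraries. The intervals ran over 717.4 to 734.2 and 534.7 to 547.2 FPKM in biotin, and over 20.3 to 23.0 and 24.0 to 26.9 FPKM in control. Over all rows above 0, the FPKM lay inside its interval in 75.9% to 77.8% of them, depending on the library. With the middle of the interval in place of the FPKM, chosen after seeing the data, the CLIC4 log2 fold change was 4.68.

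**Figure D2:**
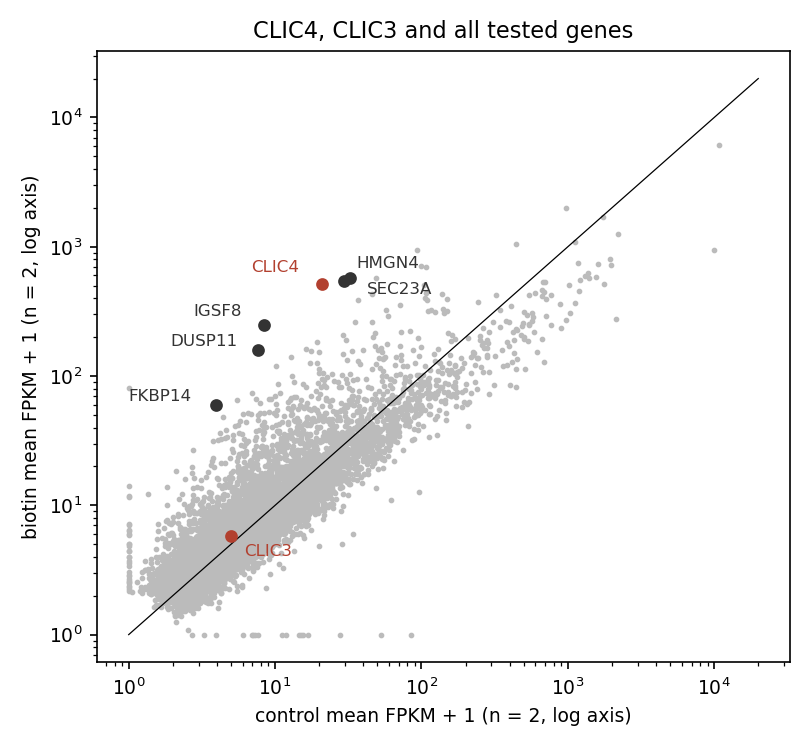
Mean FPKM + 1 of the biotin libraries against that of the control libraries (n = 2 each, log axes) for the 9934 tested genes as grey points, with CLIC4 and CLIC3 in red, the 5 genes nearest to CLIC4 in profile in black and the line of equal values. CLIC4 (means 512.7 and 20.0 FPKM) stands far above the line and CLIC3 (4.84 and 4.02 FPKM) lies near it.

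CLIC3, first found as a partner of the kinase ERK7, had 7.57 and 2.1 FPKM in the biotin libraries and 3.71 and 4.33 FPKM in the control libraries. The biotin values lay on either side of both control values, so the groups overlapped. The means were 4.84 ± 3.87 FPKM in biotin and 4.02 ± 0.435 FPKM in control (SD, n = 2 each), and the log2 fold change was 0.04 ± 0.44 (SE). Its sign rested on single libraries: it was -0.69 without biotin replicate 1, 0.77 without biotin replicate 2 and -0.05 without control replicate 1. Its row, NM_004669 at chr9:136994608-136996572 with 813 bases, held about 107 and 41 reads in biotin and 48 and 62 in control. The FPKM lay above the deposited interval in all 4 libraries, at 1.01 to 2.70 and 0.151 to 0.954 in biotin and 0.222 to 1.41 and 0.266 to 1.53 in control, and the level of CLIC3 is uncertain to that extent. With the middle of the interval the log2 fold change was 0.18.

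CLIC2, on the X chromosome and reported to modulate ryanodine receptors, had 0.0647 and 0.0238 FPKM in biotin and 0.0227 and 0.0455 FPKM in control. These values stand for about 3 and 1 reads in biotin and 1 and 2 reads in control, where 3 reads on its row were worth 0.0472 to 0.0696 FPKM. CLIC5, which in mouse hair cells links membrane and actin at the base of stereocilia, was listed at 0 in both biotin libraries and in control replicate 1. In control replicate 2 it had 0.0335 FPKM on the row NM_001256023, about 1 read. CLIC6 was listed at 0 in biotin replicate 1 and control replicate 2 and rested on about 1 read in each of the others, 0.00769 FPKM in biotin replicate 2 and 0.0144 FPKM in control replicate 1. No difference between groups was detectable for these 3 genes at this depth, and no fold is given.

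CLIC1, first described as a chloride channel protein of the nucleus, was listed at 0 in all 4 libraries. It has 21 rows, 3 accessions each placed on chromosome 6 and on 6 alternate haplotypes of that chromosome, and every one of them was at 0 with a status of OK. A value of 0 was common among genes with such placements. Of 18158 protein-coding genes with no row on an alternate sequence, 22.8% were at 0 in all 4 libraries, against 74.0% of the 755 with at least 1. Of the 58 genes placed on exactly 6 alternate haplotypes of chromosome 6, as CLIC1 is, 47 were at 0 (81.0%). The 20 protein-coding genes nearest to CLIC1, within 78.2 kb, all had an alternate placement, and 16 of them were at 0, with BAG6, CSNK2B and HSPA1A among them. The zeros of CLIC1 are therefore given as listed and not as a level, and CLIC1 was not compared between the groups.

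**Figure D3:**
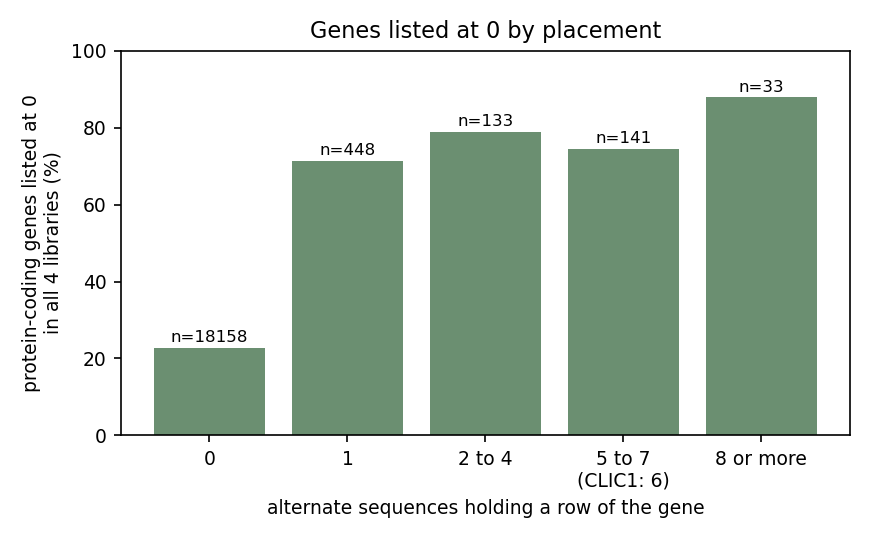
Percentage of protein-coding genes listed at 0 FPKM in all 4 libraries, by the number of alternate sequences that hold a row of the gene, with the number of genes above each bar. The bar without alternate placement stands at 22.8% and the bar of 5 to 7, which holds CLIC1, at 74.5%.

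Genes whose values ran most like those of CLIC4 across the 4 libraries were found by the Euclidean distance between log2(FPKM + 1) profiles, each centred on its own mean. With 2 groups of 2 libraries, this likeness is mostly likeness in the size of the group difference. The nearest was IGSF8, an immunoglobulin superfamily membrane protein, at a distance of 0.31, with 291.2 and 205.1 FPKM in biotin and 6.75 and 8.09 FPKM in control. DUSP11, an RNA 5′ phosphatase, followed at 0.40, with 195.1 and 122.2 FPKM in biotin and 5.09 and 8.23 FPKM in control. In both, as in CLIC4, biotin replicate 1 was the higher biotin library and control replicate 1 the lower control library.

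HMGN4, a nucleosome-binding protein, lay at 0.50, with 606.9 and 480.1 FPKM in biotin and 28.9 and 28.4 FPKM in control. SEC23A, of the COPII vesicle coat, lay at 0.65, with 513.4 and 636.1 FPKM in biotin and 29.7 and 33.3 FPKM in control. FKBP14, a prolyl isomerase of the endoplasmic reticulum, lay at 0.75, with 61.7 and 56.1 FPKM in biotin and 2.98 and 2.93 FPKM in control. In all 5 genes both biotin libraries lay far above both control libraries, with log2 fold changes of 3.92 to 4.87.

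Of these 5 mRNAs, 0 held TACTTGA, as in CLIC4. The longest complementary stretch had 13 bases in FKBP14 (nucleotides 8 to 20) and 11 in SEC23A (nucleotides 12 to 22), against 8 in DUSP11, 7 in IGSF8 and 6 in HMGN4. Among these 5 genes, profiles near that of CLIC4 occurred with and without a long stretch in the linked mRNA. Any bases outside the linked sequences were not searched. The FKBP14 and SEC23A stretches are shown for comparison with the CLIC4 line above, with capitals marking the complementary bases.
FKBP14, 3′ UTR, chr7:30013207-30013219, minus strand: gaataaataCCTATCCTGGATTttaaaaaa
SEC23A, coding, chr14:39045193-39045203, minus strand: ttatgattcAGCCTATCCTGtatgcgtatt

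How unusual an 11-base stretch was, and how genes holding one behaved, was counted over the 8887 tested genes with a linked mRNA. A longest stretch of 11 or more bases was held by 97 of them (1.09%), CLIC4 included. Of these 97 genes, 39 were called higher (40.2%) and 3 lower (3.09%), with a median log2 fold change of 0.48. Over all 8887 genes, 13.3% were called higher and 9.38% lower, with a median of -0.07.

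The share called higher went up with the length of the stretch, from 9.30% of 4752 genes at 7 bases or fewer, through 14.6% of 2720 at 8, 20.3% of 1019 at 9 and 31.8% of 299 at 10. The share called lower was 12.5% at 7 bases or fewer, 6.69% at 8, 4.61% at 9 and 2.34% at 10. Median mRNA length moved with the stretch and was 2222 bases at 7 or fewer and 4364 bases at 11 or more. Among the 933 genes whose mRNA was within 10% of the CLIC4 length, 16.6% were called higher in all, and by stretch the shares were 10.7% of 382, 16.2% of 364, 23.3% of 129, 40.5% of 42 and 50.0% of 16. The last of these groups holds fewer than 20 genes, CLIC4 among them.

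The largest differences did not all belong to mRNAs with a long stretch. Of the 31 genes with a log2 fold change of at least 3 on the log2(FPKM + 1) scale, 8 had a stretch of 11 bases or more, 8.25% of the 97 such genes, and 9 had 7 or fewer, 0.189% of 4752. These counts are a description made after the CLIC4 value was known, and base composition and other short sequences were not tested.

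**Figure D4:**
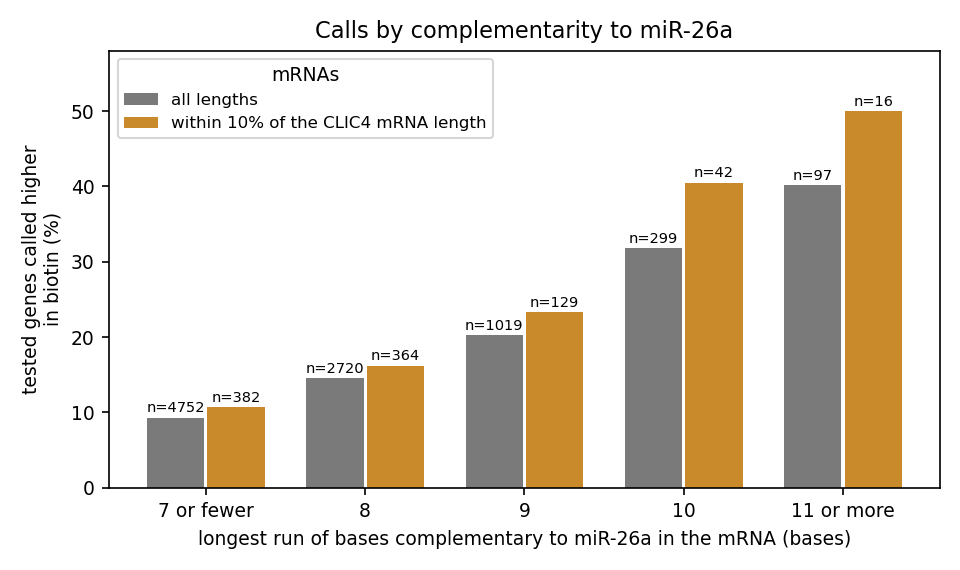
Percentage of tested genes called higher in biotin, by the longest run of bases in the mRNA complementary to miR-26a, for mRNAs of all lengths (grey) and for those within 10% of the CLIC4 mRNA length (orange), with the number of genes above each bar. Over all lengths the share is 9.30% at 7 or fewer bases and 40.2% at 11 or more, the bar that includes CLIC4.

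The genes next to each CLIC gene on its chromosome were examined, since reads of overlapping transcripts could have been assigned to either. No other row overlapped the locus of a CLIC gene. CLIC4 lies between SRRM1, 72.0 kb before it, and RUNX3, 55.2 kb after it. SRRM1, a splicing co-activator, had 4.11 and 2.41 FPKM in biotin and 4.63 and 4.17 FPKM in control (log2 fold change -0.37, adjusted p = 0.252, limma). RUNX3, a transcription factor, had 3.82 and 3.28 FPKM in biotin and 1.76 and 1.35 FPKM in control, a log2 fold change of 0.84 (adjusted p = 0.0164, limma). The RUNX3 call did not hold when any of the 4 libraries was left out, with log2 fold changes of 0.72 to 0.95. Neither neighbour reached a log2 fold change of 1, against 4.61 for CLIC4.

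CLIC3 lies between PAXX and ABCA2. PAXX, a factor of DNA end joining only 0.6 kb from CLIC3, had 134.3 and 127.4 FPKM in biotin and 37.6 and 34.1 FPKM in control. It was called higher (log2 fold change 1.84 ± 0.19 SE, adjusted p = 0.00234, limma) and stayed so without each library in turn (log2 fold change 1.77 to 1.91). ABCA2, a lipid transporter 10.7 kb away, had 13.4 and 12.7 FPKM in biotin and 7.72 and 7.68 FPKM in control (log2 fold change 0.69, adjusted p = 0.0267, limma). The ABCA2 call was lost without any of the 4 libraries, with log2 fold changes of 0.66 to 0.73. At CLIC3 itself, between these genes, the groups overlapped.

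Of the neighbours of the other members, ENPP4 beside CLIC5 had 1.82 and 1.77 FPKM in biotin and 3.43 and 3.98 FPKM in control, and was called lower (log2 fold change -0.75, adjusted p = 0.0170, limma). That call was lost without any of the 4 libraries, with log2 fold changes of -0.83 to -0.67. RCAN1 beside CLIC6 had 2.16 and 2.32 FPKM in biotin and 4.08 and 3.05 FPKM in control (adjusted p = 0.0783, limma). RUNX2, MSH5 and RAB39B did not exceed 0.434 FPKM in any library, and DDAH2, TMLHE-AS1 and LINC00160 were listed at 0 in all 4.

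Among other chloride channels and transporters, 31 genes chosen by function, 20 were tested, 1 was called higher and 0 lower, and the median log2 fold change was -0.01. Over all tested genes 13.2% were called higher and 9.31% lower, with a median of -0.06. The gene called was SLC12A4, a potassium-chloride cotransporter, with 8.09 and 8.03 FPKM in biotin and 2.77 and 2.34 FPKM in control (log2 fold change 1.35 ± 0.15 SE, adjusted p = 0.00294, limma), a call that held without each library in turn. LRRC8A, the essential subunit of the volume-regulated anion channel, had 9.86 and 13.3 FPKM in biotin and 9.25 and 10.5 FPKM in control (adjusted p = 0.481, limma). CLCN7, the lysosomal chloride-proton exchanger, had 11.1 and 8.11 FPKM in biotin and 6.43 and 5.42 FPKM in control (adjusted p = 0.0726, limma). The 11 genes not tested were below the filter, ANO1, BEST1, CFTR and TTYH1 at 0 in every library.

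The glutathione transferases are the enzymes whose fold CLIC proteins share. Of 19 listed, 12 were tested, 4 were called higher and 2 lower, and the median log2 fold change was 0.24, beside 13.2%, 9.31% and -0.06 over all tested genes. GSTO2, of the omega class that the CLIC fold most resembles, had 224.1 and 139.4 FPKM in biotin and 19.1 and 17.4 FPKM in control. Its log2 fold change was 3.21 ± 0.27 (SE, adjusted p = 0.0012, limma), and the call held without each library in turn, though not on single transcript rows (adjusted p = 0.0546). GSTO1, the other omega member, had 27.0 and 25.4 FPKM in biotin and 42.2 and 34.4 FPKM in control and was not called (log2 fold change -0.53, adjusted p = 0.0959, limma).

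GSTZ1, an enzyme of tyrosine breakdown, had 32.0 and 22.7 FPKM in biotin and 7.42 and 8.05 FPKM in control (log2 fold change 1.68, adjusted p = 0.00474, limma). GDAP1, a mitochondrial outer membrane protein, had 6.29 and 6.93 FPKM in biotin and 2.48 and 2.68 FPKM in control (log2 fold change 1.09, adjusted p = 0.00539, limma). Both calls were lost without control replicate 1 and without control replicate 2. With each library left out in turn, the log2 fold change ran from 1.44 to 1.92 for GSTZ1 and from 1.03 to 1.15 for GDAP1. GSTM1 was higher by 0.77 on the log2 scale (3.33 and 2.86 FPKM in biotin, 1.54 and 1.26 FPKM in control, adjusted p = 0.0182, limma), and its value is uncertain, since how reads of near-identical genes of the mu class were assigned is not given in the sources used here. GSTP1, the abundant pi class enzyme, had 32.4 FPKM in both biotin libraries and 58 and 55.8 FPKM in control (log2 fold change -0.79, adjusted p = 0.0267, limma). GSTA4 had 3.54 and 4.12 FPKM in biotin and 7.08 and 7.22 FPKM in control (log2 fold change -0.76, adjusted p = 0.0190, limma). The calls of GSTM1, GSTP1 and GSTA4 were lost without any of the 4 libraries. Their log2 fold changes then ran from 0.69 to 0.86, from -0.82 to -0.77 and from -0.85 to -0.67.

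Of 26 binding and trafficking partners of CLIC proteins, 21 were tested, 4 were called higher and 3 lower, and the median log2 fold change was -0.05. The shares over all tested genes were again 13.2% higher and 9.31% lower, with a median of -0.06. YWHAZ, the 14-3-3 zeta protein, had 139.5 and 154.4 FPKM in biotin and 22.1 and 34.0 FPKM in control (log2 fold change 2.38 ± 0.25 SE, adjusted p = 0.00272, limma). IQGAP1, a scaffold of the actin cortex, had 97.2 and 91.7 FPKM in biotin and 18 and 22.1 FPKM in control (log2 fold change 2.19 ± 0.19 SE, adjusted p = 0.00149, limma). Both calls held without each library in turn.

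The 3 proteins of the ezrin, radixin and moesin family, which tie membrane proteins to actin and to which CLIC proteins bind, gave 1 call in each direction. MSN (moesin) had 130.5 and 70.1 FPKM in biotin and 28.1 and 27.0 FPKM in control, and was called higher (log2 fold change 1.76 ± 0.31 SE, adjusted p = 0.0137, limma). RDX (radixin) had 4.20 and 3.92 FPKM in biotin and 9.16 and 8.70 FPKM in control, and was called lower (log2 fold change -0.97 ± 0.15 SE, adjusted p = 0.00833, limma). EZR (ezrin) had 12 and 10.8 FPKM in biotin and 14.6 in each control library (adjusted p = 0.188, limma). The MSN call was lost without control replicate 1 or 2, and the RDX call without control replicate 1, control replicate 2 or biotin replicate 2. With each library left out in turn, the log2 fold change ran from 1.32 to 2.20 for MSN and from -1.01 to -0.93 for RDX.

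EHD1, an endosomal recycling protein, was higher, with 18.5 and 19.7 FPKM in biotin and 5.64 and 9.45 FPKM in control (log2 fold change 1.27, adjusted p = 0.0178, limma). Its call held only without control replicate 2, and was lost without control replicate 1, biotin replicate 1 or biotin replicate 2. Its log2 fold change ran from 0.94 to 1.60 in these fits. RAB11A, a GTPase of recycling endosomes, was lower, with 7.06 and 6.68 FPKM in biotin and 12.6 and 12.5 FPKM in control (log2 fold change -0.78, adjusted p = 0.0187, limma). NHERF1, the ezrin-binding scaffold, was the other gene called lower, with 5.03 and 4.55 FPKM in biotin and 8.19 and 7.97 FPKM in control (log2 fold change -0.65, adjusted p = 0.0283, limma), and is named outside the rule to complete the count. The calls of RAB11A (log2 fold change -0.82 to -0.75 in these fits) and NHERF1 were lost without any of the 4 libraries. ITGB1, the integrin subunit whose recycling CLIC3 and CLIC4 affect, had 75.5 and 70.6 FPKM in biotin and 112.3 and 110.0 FPKM in control and was not called (adjusted p = 0.0629, limma).

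Of 13 genes of CLIC4 nuclear import and signalling reported here, 12 were tested, 0 were called in either direction by limma and 1, NUTF2, had an unadjusted p below 0.05. Over all tested genes 22.5% were called in either direction and 3910 of 9934 had an unadjusted p below 0.05. The median log2 fold change of the list was 0.05, against -0.06 over all tested genes. RAN, the GTPase of nuclear transport and the most abundant of them, had 52.5 and 45.9 FPKM in biotin and 56.6 and 67.7 FPKM in control (log2 fold change -0.33, adjusted p = 0.27, limma). The SMAD proteins and the phosphatase PPM1A, whose action on them CLIC4 opposes, were not called, with SMAD2 at 13.9 and 13.6 FPKM in biotin and 12.1 and 11.4 FPKM in control (adjusted p = 0.357, limma) and PPM1A at 3.57 and 4.14 FPKM in biotin and 3.27 and 3.59 FPKM in control (adjusted p = 0.544, limma). NUTF2, a nuclear import factor that binds CLIC4, had 23.9 and 16.6 FPKM in biotin and 27.0 and 40.5 FPKM in control (adjusted p = 0.112, limma).

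**Figure D5:**
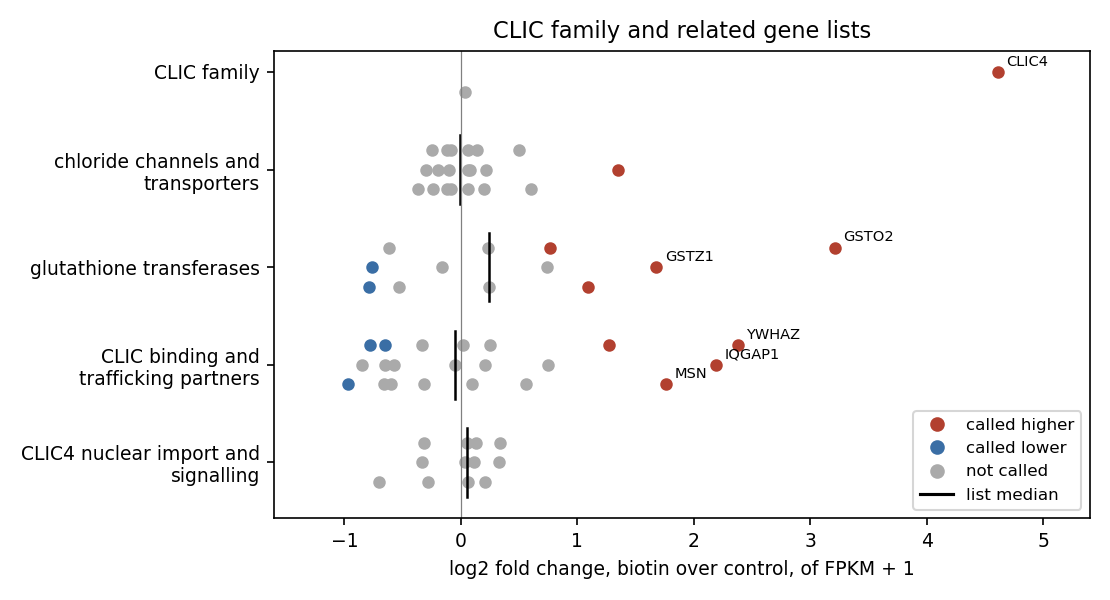
Log2 fold change of FPKM + 1, biotin over control, for each tested gene reported of the CLIC family and of 4 related lists, coloured by the limma call, with a black line at the median of each of the 4 related lists. CLIC4, at 4.61, lies beyond every gene of the related lists, of which GSTO2, at 3.21, comes nearest. The family was chosen for the CLIC4 value in this contrast, so nothing is read from its place or colour.

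The 14 genes named from these lists were searched for the same letters as the CLIC mRNAs. TACTTGA occurred in 5 of the 14 mRNAs, those of GSTO2, IQGAP1, EHD1, GSTM1 and RAB11A, and in 3 of them (GSTO2, EHD1 and RAB11A) it lay in the 3′ UTR. Over 17958 genes with 1 mRNA each, 14.7% held it anywhere and 9.23% in the 3′ UTR. RAB11A was lower and the other 4 were higher in the biotin libraries. Apart from RAN, the 14 were named because they were called, so nothing is read from these directions. The longest complementary stretch in these 14 mRNAs had 7 to 9 bases, shorter than the 11 bases of CLIC4 in every case. Only 1.09% of the 8887 tested genes with a linked mRNA held 11 bases or more.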

How the data were processed

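The tools named in the submitters' processing notes are Cufflinks 2.1.1, Cuffdiff, TopHat2 2.0.9, FastQC 0.10.1 and cutadapt, with build hg38. What each did, its settings, the annotation and the use of strand in counting: not given in the sources used here. Libraries were made with a stranded total RNA kit and read as single reads of 50 bases, per the labels' protocols. The authors deposited one table per library, in which values are FPKM with interval bounds, per the file headers. The deposited coverage signal, with transcript length, served to estimate reads.

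Of 46699 accessions, 98.6% were given a symbol from RefSeq or GENCODE 29, and FPKM was summed per gene. The 22 genes with a failed or excess-data row, and genes of short structured RNAs recognised by symbol, were left out of the tests. Tested genes had at least 1 FPKM in at least 2 libraries. The comparison used limma 3.58.1 (R 4.3.3, eBayes, trended prior variance) on log2(FPKM + 1), two-sided, with Benjamini-Hochberg adjustment over all 9934 tested genes, after the code was tested on simulated data. Precision is limited by 2 libraries a group, and read estimates cover counting error only. Pearson r over genes was 0.970 between the biotin and 0.971 between the control libraries. Seed matches and complementary stretches were searched on the sense strand of spliced mRNAs, one mRNA per gene for the background, namely that of the highest mean FPKM or, failing that, the longest.

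The members and lists were chosen with earlier results of these data known. Genes named were the 6 members, of each list those past the threshold or the 6 with the largest change, the 5 nearest to CLIC4 in profile, and the flanking genes. The highest gene was named where none passed. Genes of the lists named beside these were chosen after their values were seen. Alternatives were other pseudocounts, filters and scalings, single transcript rows, primary chromosomes, no variance trend, a replicate block and leaving out each library. Some listed genes are not reported here, and list counts and medians leave them out.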

Additional observations from a re-analysis of the deposited data

How the results depend on the processing

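The CLIC4 log2 fold change, by which the family was chosen, ran from 4.37 to 4.92 under the alternatives, which is a description and no support. A mean FPKM of at least 5 removed CLIC3. The CLIC3 sign turned with upper-quartile scaling (-0.03) and without control replicate 1 (-0.05) or biotin replicate 1 (-0.69), within a range of -0.69 to 0.77 without single libraries; the cause was not tested. Leaving out any of the 4 libraries singly, with the lone library of a group assumed to vary like the other group, counts ran from 193 to 680 for genes called higher (1307 with all) and from 32 to 227 for genes called lower (925 with all); for higher and lower calls of glutathione transferases from 1 to 4 and 0 to 0 and of binding and trafficking partners from 2 to 3 and 0 to 1. Without a filter on low values, 653 genes were higher and 231 lower, with 1 glutathione transferase lower and 2 partners higher. On single transcript rows the counts were 336 higher and 142 lower, 0 and 0 glutathione transferases, and 2 and 0 partners. With a mean FPKM of at least 5, 2 glutathione transferases were higher and 7 partners lower. Partners called lower numbered 7 with upper-quartile scaling, 5 with quantile scaling and 7 without a variance trend, and quantile scaling called 1 nuclear import gene lower. Requiring a match to nucleotides 2 to 7 followed by A left 2 CLIC genes with a seed match instead of 4, and the 3p arms of both precursors, searched after seeing the data, gave 1. Labels share replicate numbers, but deviations of same-numbered libraries correlated at 0.00, so numbers were not taken as pairs; with a replicate block 1078 genes were higher and 534 lower, with 1 glutathione transferase lower and the GSTP1 (adjusted p = 0.0592, limma) and ABCA2 (0.052) calls lost. Of 384 values of 26 named genes, 319 kept direction and side, 62 lost a call and 3 reversed. Only 12 of the 26 genes kept direction and side in all alternatives run. SRRM1, RCAN1 and RAN are among these 12 and were not called under any setting, so a kept side is not always a kept call. The median of all tested genes was -0.13 under upper-quartile, -0.10 under quantile and -0.01 under median-of-ratios scaling. Depth limits CLIC2, CLIC5 and CLIC6, and 2 libraries a group limit every call.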
